A study of Mus musculus with 15 samples.

Results

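The interferon-stimulated genes described here are 47 mouse genes known as targets of type I or type II interferon, chosen by symbol and found in the raw count table by Ensembl identifier. All 47 were among the 53700 rows of the table, and all 47 passed the filter on low counts that left 22529 genes tested. A type I class holds the 14 Ifit, Oas, Mx and Isg15 genes, and a gamma-type class holds 6 genes, which are Gbp2, Gbp3, Gbp5, Gbp7, Irgm1 and Cxcl9. The other 27 members are transcription factors, nucleic acid sensors, further antiviral effectors, immunity-related GTPases and chemokines, many of which answer to either kind of interferon.

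RNA was sequenced from whole dorsal skin of male SKH-1 mice, a hairless strain, 24 h after topical treatment, in 5 groups of 3 libraries. The SNX-5422+CEES group received CEES and, 15 min later on the injured area, SNX-5422 at 20 mg/kg. The CEES group received CEES alone, at 2 mg per mouse or 500 µg/cm2. The SNX-5422+PAO group received PAO followed by SNX-5422 on the same schedule, and the PAO group received PAO alone, at 100 µg per mouse or 25 µg/cm2. The Control group received only ethanol, the solvent of both agents. SNX-5422+CEES libraries are numbered here in accession order, since their titles give them no number of their own. CEES (2-chloroethyl ethyl sulfide) is an alkylating agent related to sulfur mustard, PAO (phenylarsine oxide) is an arsenical that binds thiols, and SNX-5422 is an inhibitor of the chaperone HSP90. No group used here had SNX-5422 without an agent, and the labels give no ages. They do not tie each library to a separate animal either, so the p-values reflect how far these libraries spread, part of which can be technical.

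Gene counts per library ran from about 16838200 to about 28887400. All 10 keratinocyte markers looked at, Krt5 and Krt14 among them, had counts in every group, and so did all 8 markers of skeletal muscle and all 7 of pancreas. The SNX-5422+CEES and CEES libraries bear code numbers from 13 to 18 and the rest from 1 to 9, so whatever those codes mark cannot be told apart from CEES. Mitochondrial ribosomal RNA (mt-Rnr1 and mt-Rnr2) took 15.6% ± 2.88 (SD, n = 3) of gene counts in SNX-5422+PAO and 13.4% ± 4.01 in PAO libraries, against 7.44% ± 0.800 in Control libraries. PAO library 2 had the highest share of the 15 libraries, 17.7%. Among the PAO libraries it had the lowest level of 42 of the 47 members, and of 37.9% of all genes tested. PAO library 1 had a share of 9.69% and the highest level of 38 members among the PAO libraries.

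Interferons act through receptors on the cell surface that start kinase cascades. Type I interferons (alpha, beta, kappa and others) lead to a complex that holds STAT2 and IRF9 and binds the interferon-stimulated response element (ISRE) in promoters. Promoters that answer to interferon gamma often hold the gamma-activated site (GAS), and interferon gamma induces IRF1, which binds sites of the ISRE kind. The products detect viral nucleic acid, degrade RNA, block translation or the assembly of viruses, attack the vacuoles of intracellular microbes, and attract T cells. In skin, keratinocytes make interferon kappa, and injury is known to bring in plasmacytoid dendritic cells, which make interferon alpha and beta.

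Promoter sequences were available from RefSeq (build GRCm38.p6, from 250 bases before to 50 bases after the start of the gene) for 35 of the 47 members, and 6 are shown because the results turn on these genes. Capitals mark matches to the ISRE core GAAANNGAA or the GAS core TTCNNNGAA, searched on both strands. The GAS core is its own reverse complement. The windows belong to Isg15 (chr4:156200769-156201068, minus strand), Ifit3 (chr19:34583279-34583578, plus strand), Rsad2 (chr12:26456403-26456702, minus strand), Oasl1 (chr5:114922990-114923289, plus strand), Gbp7 (chr3:142530086-142530385, plus strand) and Cxcl9 (chr5:92328030-92328329, minus strand), and each reads towards the gene.
Isg15: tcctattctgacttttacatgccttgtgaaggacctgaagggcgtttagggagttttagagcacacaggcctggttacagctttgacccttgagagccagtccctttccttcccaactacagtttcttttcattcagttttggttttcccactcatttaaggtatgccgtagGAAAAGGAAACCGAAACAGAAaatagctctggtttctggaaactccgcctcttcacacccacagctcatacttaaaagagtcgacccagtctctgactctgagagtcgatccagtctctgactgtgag
Ifit3: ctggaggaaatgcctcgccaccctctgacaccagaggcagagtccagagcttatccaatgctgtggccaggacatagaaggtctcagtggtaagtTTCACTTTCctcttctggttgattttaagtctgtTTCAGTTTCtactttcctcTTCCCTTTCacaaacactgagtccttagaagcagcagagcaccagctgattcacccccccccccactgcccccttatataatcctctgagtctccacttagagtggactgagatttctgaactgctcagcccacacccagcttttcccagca
Rsad2: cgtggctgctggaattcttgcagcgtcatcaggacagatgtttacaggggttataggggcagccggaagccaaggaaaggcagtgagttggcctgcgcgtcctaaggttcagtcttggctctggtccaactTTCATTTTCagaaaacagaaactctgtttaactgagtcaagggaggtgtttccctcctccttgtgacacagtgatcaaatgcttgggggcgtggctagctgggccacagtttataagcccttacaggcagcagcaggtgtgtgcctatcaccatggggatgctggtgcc
Oasl1: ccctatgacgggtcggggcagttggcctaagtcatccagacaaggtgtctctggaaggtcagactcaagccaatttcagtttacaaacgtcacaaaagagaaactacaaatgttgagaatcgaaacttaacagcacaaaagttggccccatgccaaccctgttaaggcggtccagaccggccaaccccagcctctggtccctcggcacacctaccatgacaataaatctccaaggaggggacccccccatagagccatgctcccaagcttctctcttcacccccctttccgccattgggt
Gbp7: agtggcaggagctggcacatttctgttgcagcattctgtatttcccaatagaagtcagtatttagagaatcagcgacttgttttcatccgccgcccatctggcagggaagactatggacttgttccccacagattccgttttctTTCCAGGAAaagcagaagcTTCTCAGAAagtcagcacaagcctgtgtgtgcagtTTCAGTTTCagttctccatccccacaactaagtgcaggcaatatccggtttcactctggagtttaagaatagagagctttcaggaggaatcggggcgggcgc
Cxcl9: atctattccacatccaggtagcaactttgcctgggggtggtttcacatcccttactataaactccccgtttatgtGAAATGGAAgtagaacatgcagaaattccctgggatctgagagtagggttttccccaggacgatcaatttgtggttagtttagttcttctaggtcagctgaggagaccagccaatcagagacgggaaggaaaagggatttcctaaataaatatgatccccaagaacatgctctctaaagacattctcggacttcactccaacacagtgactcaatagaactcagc

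The Isg15 window holds 3 ISRE matches that overlap one another, and that of Ifit3 holds 3 separate ones. The windows of Rsad2 and Cxcl9 hold 1 ISRE match each, Gbp7 has 1 ISRE and 2 GAS matches, and the Oasl1 window has neither. The ISRE core was found for 23 of the 35 members with a window, against 8.56% of all 32851 windows of the same length, and the GAS core for 9 of the 35, against 8.298% of all windows. The 35 members had 40 windows, and a member counted if any of its windows held a match, while the shares of all windows count each window singly. By class, 6 of 6 gamma-type and 7 of 10 type I members had the ISRE core, and 2 of 6 and 2 of 10 had the GAS core. A match describes these letters only, and the absence of one says nothing about what binds elsewhere. Among the members without an ISRE core in this window were Oasl1, Oasl2, Irf7 and Xaf1, whose transcripts rose after PAO.

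The first comparison asked which of these genes stood higher or lower 24 h after PAO than after vehicle. After PAO, 38 of the 47 members rose and 0 fell, where 11.9% of all genes tested were raised and 8.58% lowered (edgeR quasi-likelihood test, adjusted p under 0.05). In whole skin, more cells of a type and more RNA per cell cannot be told apart. All 11 of the other antiviral effectors, all 5 nucleic acid sensors, all 4 transcription factors and 6 of 7 Oas genes were among those that rose. The median log2 fold change was 0.88 over the members and -0.0040 over all genes tested. The 9 members without a call were Ifit2, Ifit3b, Oas1b, Gbp3, Gbp5, Gbp7, Iigp1, Cxcl9 and Cxcl11. Without PAO library 1, 25 members rose. Of the 38 calls, 24 held whichever library was left out, and 28 members rose when libraries were scaled by total counts, a scaling that moved the median of all genes to -0.21.

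The second comparison asked the same of CEES. After CEES, 13 members rose and 4 fell, where 17.8% of all genes tested were raised and 16.2% lowered. Those that rose were Oasl2, Oas2, Gbp7, Eif2ak2, Ifi204, Zbp1, Dhx58, Parp14, Samd9l, Trim30a, Bst2, Epsti1 and Irf1, and those that fell were Ifit3, Igtp, Ifi44 and Cxcl9. The median over the members was 0.35, against -0.036 over all genes tested. Without CEES library 2, 11 members were called, and 10 of the 17 calls held whichever library was left out.

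Set directly against PAO, CEES gave lower levels of 24 members and higher levels of 2, Ifi204 and Gbp7, where 9.02% of all genes tested were lower and 9.86% higher after CEES than after PAO. The median of this difference over the members was -0.65, and -0.36 without PAO library 1. The lower ones were 11 of the 14 type I genes, 10 of the 27 others, and Gbp3, Irgm1 and Cxcl9 of the gamma-type class. The Gbp3 call was lost in 10 of the 15 fits that left out a library. With the share of mitochondrial ribosomal RNA as a covariate the difference was called for 17 members, all lower after CEES, and Gbp7 and Ifi204 were no longer called. Under total counts, where the median of all genes stood at 0.31, the split was 18 lower and 4 higher.

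**Figure D1:**
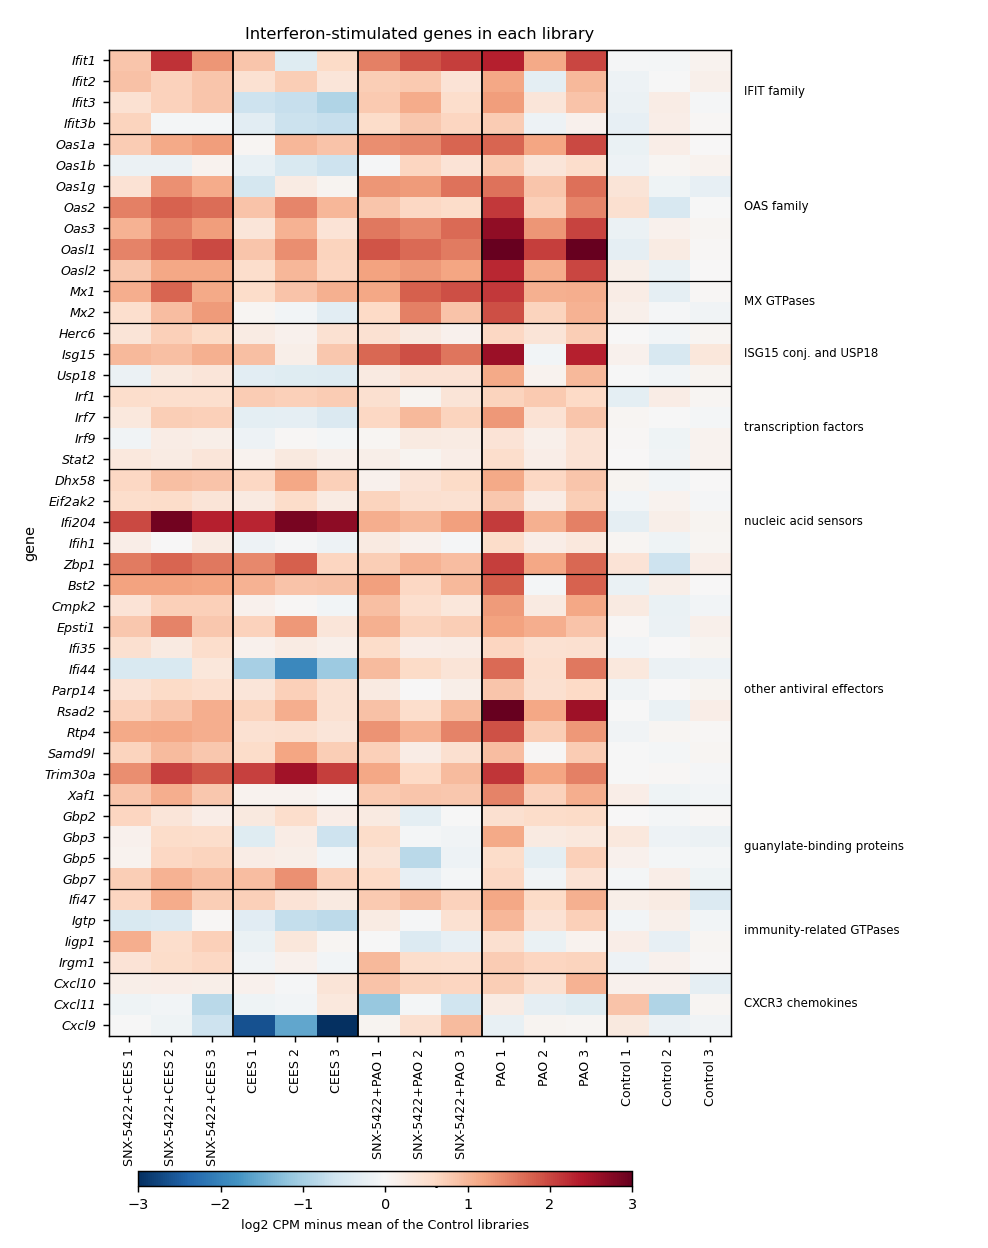
Level of each of the 47 genes (rows, grouped by role) in each of the 15 libraries (columns, by group), as log2 CPM minus the mean of the Control libraries, with colours running from -3 (blue) to 3 (red). PAO library 2 is lower than the other PAO libraries in 42 rows, and CEES libraries are blue for Ifit3, Ifi44, Igtp and Cxcl9. Ifi204 and Trim30a lie above the Control mean in every treated library, those given PAO included.

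SNX-5422 was set against each agent alone. The SNX-5422+PAO libraries had lower levels than PAO libraries of 3 members, Oasl1, Rsad2 and Parp14, and higher levels of 0, where 3.39% of all genes tested were lowered and 2.57% raised. The log2 fold change was below 0 for 44 of the 47 members, with a median of -0.28. The median was -0.14 without PAO library 1, where 11 members changed sign, and -0.43 without PAO library 2. The number of calls also rested on single libraries. It was 0 without PAO library 1 or without SNX-5422+PAO library 2, 1 without SNX-5422+PAO library 3, and 9 without PAO library 2. It was 8 under total counts, with the median of all genes at -0.14.

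The SNX-5422+CEES libraries had higher levels than CEES libraries of 7 members, Ifit3, Mx2, Irf7, Xaf1, Irgm1, Iigp1 and Cxcl9, and lower levels of 0, where 3.54% of all genes tested were raised and 3.46% lowered. The log2 fold change was above 0 for 39 of the 47 members, with a median of 0.34. Summed levels of plasmacytoid dendritic cell markers were higher in SNX-5422+CEES than in CEES libraries (38.6 to 53.1 against 23.9 to 31.0 CPM). Cox6a2 among them is also expressed by muscle. Sums of skeletal muscle (53036 to 73077 against 27894 to 30654 CPM), keratinocyte and pancreas markers were higher too. Those of monocyte and macrophage (931 to 1375 against 1672 to 2575 CPM), fibroblast, and Langerhans and dendritic cell markers were lower. Neutrophil, endothelial, and NK and T cell sums overlapped. The part of any of these in the differences was not tested. The calls of Ifit3, Irf7, Xaf1 and Cxcl9 held whichever library was left out and under every other alternative tried. The number of calls was 4 without CEES library 1, CEES library 3 or SNX-5422+CEES library 3, and 9 without PAO library 2.

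The difference between these SNX-5422 effects (after CEES minus after PAO) was above 0 for 47 of 47 members and for 52.2% of all genes tested, and its median over the members was 0.59. It was called for 3 members, Ifit3, Oasl1 and Xaf1, all positive, where 0.55% of all genes tested were called as positive and 0.186% as negative. At an unadjusted p under 0.05 there were 28 members, and 13.2% of all genes tested. Each of the 3 calls was lost in 9 or 10 of the 15 fits that left out a library, and the number of calls ran from 0, for example without Control library 3, to 9 without PAO library 2. That median ran from 0.46 to 0.71 as each library was left out. Of the members, 36 had a negative SNX-5422 effect after PAO and a positive one after CEES, which 22.0% of all genes tested had. The signs after PAO rested in part on PAO library 1, without which some members changed sign, as given above.

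Against vehicle, the SNX-5422+CEES libraries had 31 members raised and 0 lowered (13.1% and 9.25% of all genes tested), and the SNX-5422+PAO libraries had 20 raised and 0 lowered (10.7% and 8.66%). The medians over the members were 0.80 for SNX-5422+CEES and 0.67 for SNX-5422+PAO. Of the calls in SNX-5422+CEES libraries, 18 held under every alternative tried, and of those in SNX-5422+PAO libraries 5 did, Ifit1, Isg15, Oasl1, Oasl2 and Rtp4. Under total counts 10 members were raised in SNX-5422+PAO libraries, with the median of all genes at -0.33, and 8 were with the mitochondrial covariate. Between SNX-5422+CEES and SNX-5422+PAO, 6 members were higher after the first treatment and 0 lower (10.7% and 7.87% of all genes tested), namely Ifi204, Trim30a, Oas2, Parp14, Gbp7 and Iigp1, and the median was 0.04, with values from -0.03 to 0.11 as each library was left out. With the mitochondrial covariate none of these 6 was called and 2 other members, Isg15 and Ifi44, were lower, and under total counts 16 were higher, with the median of all genes at 0.33.

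**Figure D2:**
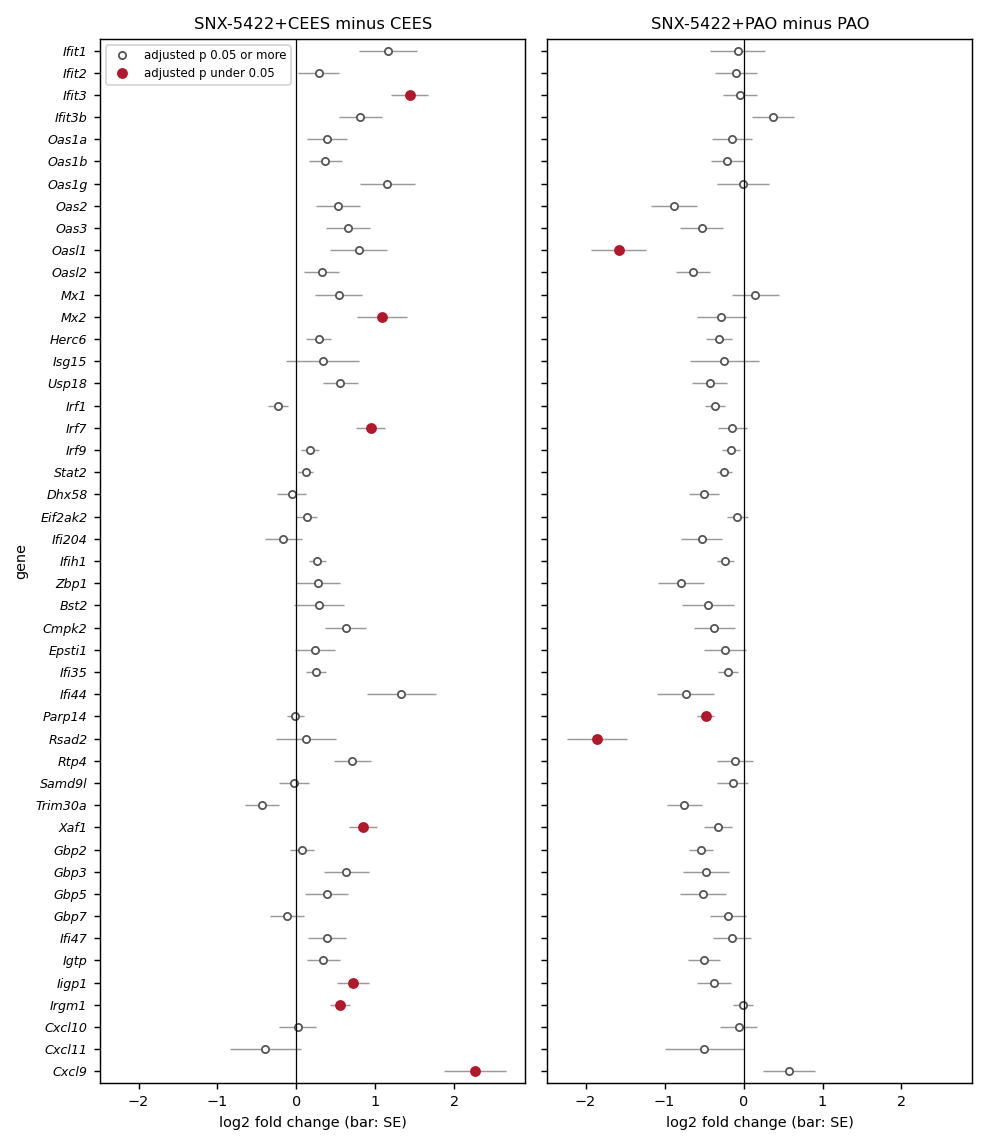
Effect of SNX-5422 on each of the 47 genes, as log2 fold change with its SE, after CEES (left) and after PAO (right), with genes called at an adjusted p under 0.05 in red. The 7 called genes lie right of 0 after CEES and the 3 called genes left of 0 after PAO.

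The Ifit proteins bind viral RNA and hold back its translation. Ifit3 had 5.27, 6.18 and 6.87 CPM (counts scaled to the size of the library) in SNX-5422+CEES libraries 1 to 3, against 2.45, 2.33 and 2.01 CPM in CEES libraries. It had 6.66, 8.37 and 5.53 CPM in SNX-5422+PAO and 9.22, 4.94 and 6.98 CPM in PAO libraries, against 3.37, 4.46 and 3.70 CPM in Control libraries. The CEES libraries were thus the lowest 3 of the 15, and each of the other treated libraries lay above all Control libraries. Ifit3 rose after PAO by 0.88 ± 0.22 (log2 fold change ± SE, adjusted p = 0.00993) and fell after CEES by 0.76 ± 0.23 on the log2 scale (adjusted p = 0.0182). It was higher in SNX-5422+CEES than in CEES libraries by 1.43 ± 0.23 (adjusted p = 0.0019), while SNX-5422+PAO differed from PAO by -0.04 ± 0.22 (adjusted p = 0.947). The difference of the 2 effects was 1.47 ± 0.31 (adjusted p = 0.0422). The fall after CEES lost its call without Control library 2 or CEES library 3 (adjusted p up to 0.0734), and the rise after PAO without PAO library 1 (adjusted p = 0.0796).

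Ifit2 had 5.89, 5.16 and 5.67 CPM in SNX-5422+CEES libraries, against 4.33, 5.30 and 4.10 CPM in CEES libraries. It had 5.30, 5.46 and 4.18 CPM in SNX-5422+PAO and 7.11, 2.57 and 6.23 CPM in PAO libraries, against 2.84, 3.11 and 3.54 CPM in Control libraries. The PAO libraries overlapped Control, and the difference was 0.75 ± 0.27 (adjusted p = 0.0609). Ifit1 rose after PAO by 1.97 ± 0.38 (adjusted p = 0.0016), at 8.45, 3.66 and 6.73 CPM against 1.55, 1.53 and 1.72 CPM in Control libraries, and stood at 0.44 ± 0.39 after CEES (adjusted p = 0.425). Ifit3b, a near copy of Ifit3 whose reads may be divided with it, was not called after PAO (0.30 ± 0.27) or CEES (-0.58 ± 0.28), and was lower after CEES than after PAO by 0.88 on the log2 scale, a call lost on leaving out any 1 of 6 libraries (adjusted p up to 0.218).

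Oas enzymes make a short nucleotide chain that activates RNase L, and the related Oasl proteins have other antiviral roles. Oasl1, which in mice limits translation of Irf7 mRNA, had 3.64, 3.21 and 2.90 CPM in SNX-5422+PAO libraries, against 15.6, 4.17 and 9.41 CPM in PAO libraries. It had 2.76, 3.36 and 3.93 CPM in SNX-5422+CEES and 1.70, 2.57 and 1.52 CPM in CEES libraries, against 0.749, 1.12 and 0.941 CPM in Control libraries. The PAO libraries were the highest of all, although PAO library 2 stood just above the SNX-5422+PAO range. Oasl1 rose after PAO by 3.37 ± 0.39 (adjusted p = 2.67e-05), the largest rise of the 47 members, and stood at 1.04 ± 0.41 after CEES (adjusted p = 0.0596). SNX-5422+PAO was lower than PAO by a log2 difference of -1.58 ± 0.35 (adjusted p = 0.0132), a call that was lost without PAO library 1, SNX-5422+PAO library 2 or SNX-5422+PAO library 3 (adjusted p up to 0.0831). SNX-5422+CEES stood at 0.79 ± 0.36 from CEES (adjusted p = 0.237), and the difference of the 2 effects was 2.37 ± 0.50 (adjusted p = 0.0399).

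Oasl2 had 36.0, 16.2 and 30.2 CPM in PAO libraries, against 8.51, 6.46 and 7.56 CPM in Control libraries. The CEES libraries had 10.7, 15.1 and 11.6 CPM, which is also above every Control library but below every PAO library. It rose by 1.88 ± 0.23 after PAO (adjusted p = 3.91e-05) and by 0.74 ± 0.23 after CEES (adjusted p = 0.0186), the second call being lost without Control library 2, Control library 3 or CEES library 2 (adjusted p up to 0.0879). SNX-5422+CEES libraries had 13.2, 16.7 and 16.8 CPM and SNX-5422+PAO libraries 17.3, 18.6 and 17.2 CPM, and neither SNX-5422 effect was called (0.32 ± 0.22 and -0.64 ± 0.22).

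Oas2 had 13.9, 16.7 and 15.6 CPM in SNX-5422+CEES libraries, against 8.78, 13.5 and 9.81 CPM in CEES libraries. SNX-5422+PAO libraries had 8.71, 7.48 and 7.15 CPM, PAO libraries 21.4, 7.95 and 13.6 CPM, and Control libraries 6.79, 3.44 and 4.83 CPM. Oas2 rose after PAO (1.52 ± 0.29) and after CEES (1.10 ± 0.29), and neither SNX-5422 effect was called (0.53 ± 0.28 after CEES and -0.88 ± 0.29 after PAO). Oas3 rose after PAO by 2.14 ± 0.29 and Oas1a by 1.71 ± 0.27, and both were lower after CEES than after PAO, by 1.48 and 1.01 on the log2 scale, the Oas1a call being lost without PAO library 3 or CEES library 1 (adjusted p up to 0.0796). Oas1g rose after PAO by 1.54 ± 0.36, but it and Oas1a are near copies and their counts are uncertain. Oas1b stood at 0.57 ± 0.20 after PAO (adjusted p = 0.0572) and -0.45 ± 0.21 after CEES (adjusted p = 0.108).

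The Mx proteins are dynamin-like GTPases that trap viral particles. Mx2 had 3.38, 4.58 and 5.88 CPM in SNX-5422+CEES libraries, against 2.45, 2.20 and 1.87 CPM in CEES libraries. SNX-5422+PAO libraries had 3.59, 6.83 and 4.32 CPM and PAO libraries 9.17, 3.78 and 4.91 CPM, against 2.62, 2.28 and 2.17 CPM in Control libraries. CEES and Control libraries overlapped, and all others lay above Control. Mx2 rose after PAO by 1.34 ± 0.32 (adjusted p = 0.00653, lost without PAO library 1 at 0.0583) and with SNX-5422 after CEES by 1.08 ± 0.32 (adjusted p = 0.0499). The second call was close to the threshold and was lost in 10 of the 15 fits that left out a library and under RLE scaling, total counts and removal of mitochondrial ribosomal RNA. Mx1 rose after PAO by 1.56 ± 0.32, at 7.45, 3.53 and 3.59 CPM against 1.93, 1.35 and 1.69 CPM in Control libraries, and had 2.45, 3.02 and 3.52 CPM in CEES libraries (0.86 ± 0.32, adjusted p = 0.0504). Mx1 had 3.59, 5.71 and 3.73 CPM in SNX-5422+CEES and 3.76, 5.94 and 6.54 CPM in SNX-5422+PAO libraries, all above Control, and neither SNX-5422 effect was called.

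ISG15 is a ubiquitin-like protein, Herc6 its main ligase in mice, and Usp18 removes it and also damps signalling at the type I receptor. Isg15 had 2.90, 3.39 and 2.7 CPM in SNX-5422+PAO libraries, against 5.28, 0.770 and 4.50 CPM in PAO libraries. It had 1.69, 1.60 and 1.82 CPM in SNX-5422+CEES and 1.62, 0.938 and 1.52 CPM in CEES libraries, against 0.910, 0.558 and 1.07 CPM in Control libraries. PAO library 2 lay inside the Control range while the other PAO libraries were the highest 2 of the 15. Isg15 rose after PAO by 2.04 ± 0.47 (adjusted p = 0.0059) and was not called after CEES (0.66 ± 0.49, adjusted p = 0.332).

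Usp18 had 10.1, 4.87 and 9.01 CPM in PAO libraries, against 4.55, 4.32 and 4.80 CPM in Control libraries, a rise of 0.81 ± 0.22 (adjusted p = 0.0153) that was lost without PAO library 1 or 3 (adjusted p up to 0.102). In CEES libraries it had 3.63, 3.51 and 3.43 CPM, below every Control library but without a call (-0.37 ± 0.23, adjusted p = 0.222). Usp18 had 4.00, 5.63 and 5.92 CPM in SNX-5422+CEES libraries, each above all CEES libraries though not called, and 5.47, 6.18 and 6.20 CPM in SNX-5422+PAO libraries. Herc6 had 6.89, 5.84 and 7.49 CPM in PAO libraries, against 4.49, 4.18 and 4.61 CPM in Control libraries, a rise of 0.61 ± 0.16 (adjusted p = 0.0123, lost without PAO library 3 at 0.0724). CEES libraries had 5.29, 4.85 and 6.11 CPM, and the difference of 0.29 ± 0.16 was not called. Herc6 had 5.81, 7.32 and 6.58 CPM in SNX-5422+CEES and 6.09, 5.34 and 4.86 CPM in SNX-5422+PAO libraries, and both groups overlapped those of the agent alone.

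Among the transcription factors, Irf7 amplifies type I interferon production. It had 12.3, 16.4 and 16.2 CPM in SNX-5422+CEES libraries, against 8.00, 8.16 and 7.22 CPM in CEES libraries. It had 15.1, 19.4 and 15.6 CPM in SNX-5422+PAO and 24.3, 13.3 and 17.6 CPM in PAO libraries, against 10.2, 9.76 and 9.37 CPM in Control libraries. CEES libraries lay below all others, and the other treated libraries above Control. Irf7 rose after PAO by 0.92 ± 0.18 (adjusted p = 0.00195), stood at -0.33 ± 0.18 after CEES (adjusted p = 0.189), and was higher in SNX-5422+CEES than in CEES libraries by 0.94 ± 0.18 (adjusted p = 0.00563). The difference of the SNX-5422 effects, 1.08 ± 0.25, missed the threshold (adjusted p = 0.0608).

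Irf1, a factor that both interferons induce, rose after PAO (0.67 ± 0.13, adjusted p = 0.00163) and after CEES (0.73 ± 0.13, adjusted p = 0.000364). It had 20.3, 19.5 and 20.1 CPM in CEES and 18.8, 20.5 and 18.1 CPM in PAO libraries, against 9.63, 13.9 and 12.4 CPM in Control libraries. Neither CEES nor PAO libraries overlapped Control, and CEES and PAO differed by 0.06 ± 0.13. Stat2 and Irf9 encode subunits of the complex that binds the ISRE. Stat2 had 46.8, 37.1 and 43.9 CPM in PAO and 34.5, 39.8 and 35.9 CPM in CEES libraries, against 32.4, 30.1 and 34.6 CPM in Control libraries (0.40 ± 0.10 after PAO, called, and 0.18 ± 0.10 after CEES, not called). Irf9 had 35.5, 29.6 and 36.0 CPM in PAO and 23.9, 27.0 and 25.4 CPM in CEES libraries, against 27.0, 24.3 and 28.3 CPM in Control libraries (0.35 ± 0.11 after PAO, adjusted p = 0.0378, and -0.06 ± 0.11 after CEES). With SNX-5422, Stat2 had 40.0, 38.2 and 41.6 CPM after CEES and 36.3, 34.4 and 37.3 CPM after PAO, and Irf9 had 24.8, 31.0 and 30.1 CPM after CEES and 27.4, 32.0 and 31.4 CPM after PAO. All 4 sets of values overlapped those of the agent alone, and none of the SNX-5422 effects was called. The Irf9 call was lost on leaving out any 1 of 6 libraries, with adjusted p up to 0.156, and that of Stat2 without PAO library 1 at 0.0638.

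**Figure D3:**
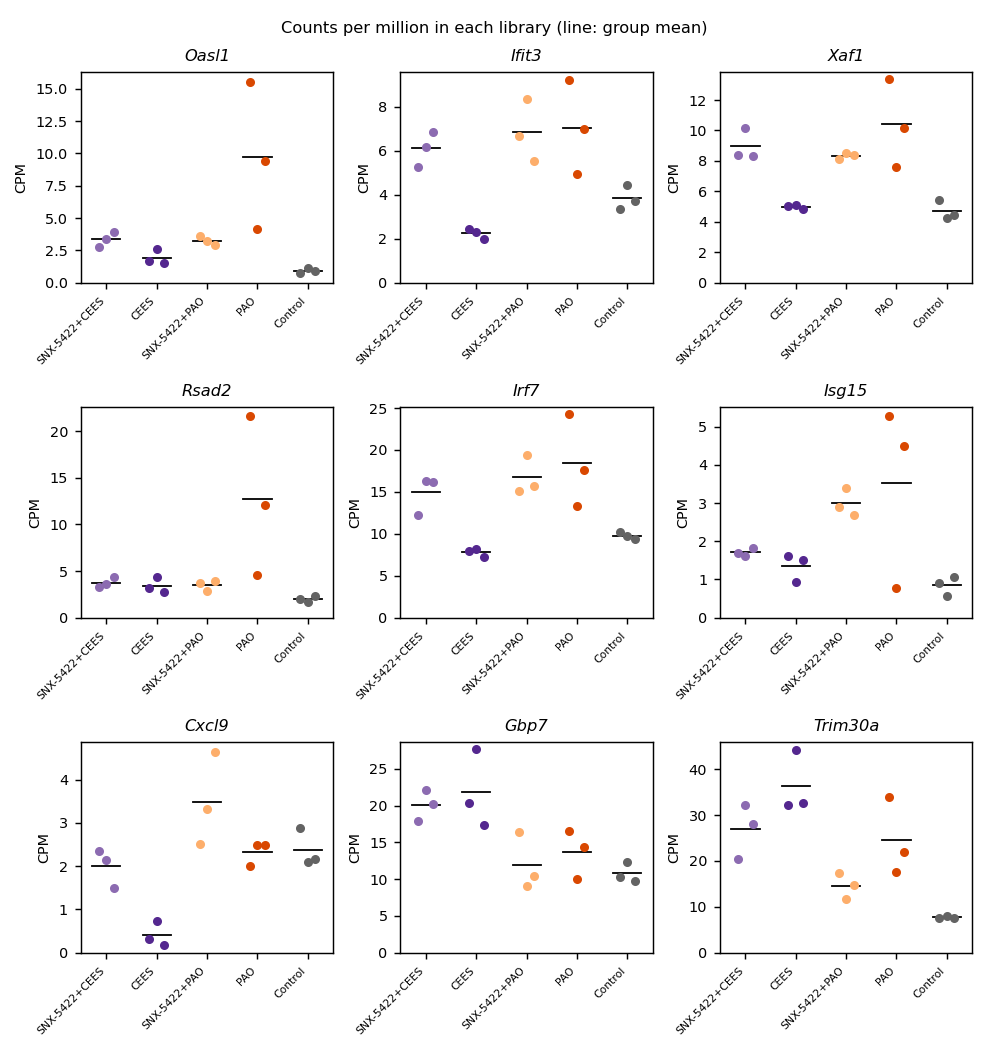
Level in CPM of 9 members in each library, with a line at the group mean, in the groups SNX-5422+CEES, CEES, SNX-5422+PAO, PAO and Control. PAO library 1 is the highest point for Oasl1, Ifit3, Xaf1, Rsad2, Irf7 and Isg15, CEES points are the lowest for Ifit3, Irf7 and Cxcl9, and they are among the highest for Gbp7 and Trim30a.

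Of the 5 nucleic acid sensors, 4 rose after CEES and all 5 after PAO, where 17.8% and 11.9% of all genes tested were raised. Ifi204 is a DNA sensor of the p200 family, whose members are similar in sequence. Ifi204 averaged 23.9 ± 4.49 CPM in CEES and 11.9 ± 4.30 CPM in PAO libraries, against 3.83 ± 0.592 CPM in Control libraries (SD, n = 3). It rose by 2.63 ± 0.26 after CEES (adjusted p = 1.96e-06) and by 1.63 ± 0.26 after PAO (adjusted p = 0.000432), and was higher after CEES than after PAO by 1.00 ± 0.24 (adjusted p = 0.00826). Zbp1, a sensor that can start necroptosis, rose by 1.33 ± 0.30 after CEES and by 1.67 ± 0.30 after PAO. Dhx58, a regulator of the RIG-I-like receptors, rose by 0.87 ± 0.19 after CEES and 0.89 ± 0.19 after PAO.

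Eif2ak2 encodes the kinase PKR, which halts translation on double-stranded RNA. It had 26.0, 32.1 and 26.0 CPM in CEES and 38.1, 25.5 and 36.1 CPM in PAO libraries, against 20.6, 23.4 and 21.3 CPM in Control libraries. It rose by 0.61 ± 0.13 after PAO (adjusted p = 0.00421) and by 0.37 ± 0.13 after CEES (adjusted p = 0.0454), a call lost in 9 of the 15 fits that left out a library. Ifih1, the sensor MDA5, had 41.0, 32.3 and 35.0 CPM in PAO libraries, against 29.4, 25.8 and 29.3 CPM in Control libraries (0.36 ± 0.11, adjusted p = 0.0269, lost without Control library 2 or 3 or PAO library 1 or 3, at up to 0.18). It had 25.4, 27.3 and 25.4 CPM in CEES libraries (-0.11 ± 0.11, not called). With SNX-5422, Eif2ak2 had 31.5, 32.1 and 28.6 CPM after CEES and 34.6, 30.2 and 29.7 CPM after PAO. Ifih1 had 32.1, 28.5 and 33.1 CPM in SNX-5422+CEES libraries, each above all CEES libraries though not called, and 34.1, 30.6 and 27.4 CPM in SNX-5422+PAO libraries.

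Of the other antiviral effectors, Parp14, an ADP-ribosyltransferase, had 48.6, 40.6 and 45.5 CPM in SNX-5422+PAO libraries, against 71.2, 55.7 and 60.9 CPM in PAO libraries. It had 54.5, 59.7 and 56.7 CPM in SNX-5422+CEES and 51.7, 65.6 and 55.2 CPM in CEES libraries, against 37.5, 40.7 and 42.3 CPM in Control libraries. Parp14 rose after PAO (0.64 ± 0.11) and CEES (0.52 ± 0.11), and SNX-5422+PAO was lower than PAO by a log2 difference of -0.48 ± 0.11 (adjusted p = 0.0149), a call lost without PAO library 1, SNX-5422+PAO library 2 or SNX-5422+PAO library 3 (adjusted p up to 0.0834). Samd9l, which restricts poxviruses, had 22.8, 35.0 and 25.7 CPM in CEES and 29.3, 15.8 and 26.3 CPM in PAO libraries, against 15.3, 14.9 and 16.1 CPM in Control libraries. Its rise was 0.85 ± 0.20 after CEES (adjusted p = 0.00329) and 0.63 ± 0.20 after PAO (adjusted p = 0.0351), where PAO library 2 lay within the Control range and the call was lost on leaving out any 1 of 6 libraries (adjusted p up to 0.193). With SNX-5422, Samd9l had 24.6, 29.7 and 27.3 CPM after CEES and 25.4, 18.0 and 21.7 CPM after PAO, within the range of each agent alone.

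Xaf1, an antagonist of the apoptosis inhibitor XIAP, had 8.41, 10.2 and 8.32 CPM in SNX-5422+CEES libraries, against 5.07, 5.10 and 4.82 CPM in CEES libraries. It had 8.14, 8.49 and 8.36 CPM in SNX-5422+PAO and 13.4, 7.63 and 10.2 CPM in PAO libraries, against 5.46, 4.28 and 4.48 CPM in Control libraries. CEES and Control libraries overlapped, and every library of the other groups lay above them. Xaf1 rose after PAO by 1.14 ± 0.18 (adjusted p = 0.000332), stood at 0.08 ± 0.18 after CEES, was higher in SNX-5422+CEES than in CEES libraries by 0.84 ± 0.18 (adjusted p = 0.00892), and had a difference of SNX-5422 effects of 1.17 ± 0.25 (adjusted p = 0.0422).

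Rsad2, which encodes viperin, an enzyme that makes a chain-terminating nucleotide, was singled out after its values were seen. It had 3.76, 2.91 and 3.91 CPM in SNX-5422+PAO libraries, against 21.6, 4.55 and 12.1 CPM in PAO libraries. CEES libraries had 3.19, 4.32 and 2.76 CPM and Control libraries 1.98, 1.72 and 2.30 CPM. Rsad2 rose after PAO by 2.66 ± 0.39 (adjusted p = 0.0002), and SNX-5422+PAO differed from PAO by -1.86 ± 0.38 (adjusted p = 0.00905), a call lost without PAO library 1 or SNX-5422+PAO library 2 (adjusted p up to 0.0522). It was lower after CEES than after PAO by 1.90 on the log2 scale (adjusted p = 0.00208), while the difference of the SNX-5422 effects, 1.99 ± 0.54, missed the threshold (adjusted p = 0.0967).

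Trim30a and Ifi44 were also singled out after their values were seen. Trim30a, which damps Toll-like receptor signalling and has close relatives in the genome, averaged 36.3 ± 6.83 CPM in CEES and 24.6 ± 8.48 CPM in PAO libraries, against 7.67 ± 0.199 CPM in Control libraries, and rose after CEES (2.24 ± 0.23) and after PAO (1.68 ± 0.23). Ifi44 averaged 0.377 ± 0.151 CPM in CEES and 2.83 ± 1.13 CPM in PAO libraries, against 1.07 ± 0.232 CPM in Control libraries. It rose after PAO (1.42 ± 0.37, adjusted p = 0.0115, lost without Control library 3 or PAO library 1 or 3 at up to 0.0679) and fell after CEES (by 1.49 on the log2 scale, adjusted p = 0.0142, lost without Control library 1 or CEES library 2 at up to 0.0693). The remaining effectors rose after PAO by between 0.52 ± 0.13 (Ifi35) and 1.44 ± 0.24 (Rtp4), and of them Bst2 and Epsti1 rose after CEES too. The Bst2 call after CEES was lost in 8 of the 15 fits that left out a library (adjusted p up to 0.115), under upper-quartile scaling and with the replicate block, and that of Epsti1 without Control library 2 or CEES library 2 (adjusted p up to 0.145).

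The guanylate-binding proteins attack vacuoles that hold microbes, and interferon gamma is their classic inducer. Gbp7 had 18.0, 22.1 and 20.3 CPM in SNX-5422+CEES and 20.4, 27.7 and 17.3 CPM in CEES libraries, against 10.3, 12.3 and 9.73 CPM in Control libraries. SNX-5422+PAO libraries had 16.3, 9.09 and 10.4 CPM and PAO libraries 16.6, 10.0045 and 14.4 CPM, and both groups overlapped Control. Gbp7 rose after CEES by 1.02 ± 0.22 (adjusted p = 0.00201), was not called after PAO (0.35 ± 0.23, adjusted p = 0.308), and was higher after CEES than after PAO by 0.67 ± 0.22 (adjusted p = 0.0436). That last call was lost on leaving out any 1 of 6 libraries, Control library 3 and SNX-5422+CEES library 3 among them (adjusted p up to 0.203). Gbp2 had 11.6, 12.1 and 12.4 CPM in PAO and 10.1, 11.9 and 9.54 CPM in CEES libraries, against 8.35, 7.99 and 8.47 CPM in Control libraries, and its rise was called after PAO (0.54 ± 0.15, adjusted p = 0.0181) and not after CEES (0.35 ± 0.15, adjusted p = 0.0868). The Gbp2 call after PAO was lost without Control library 2 or 3 or PAO library 1 or 3 (adjusted p up to 0.0741), under total counts and with the mitochondrial covariate. With SNX-5422, Gbp2 had 13.0, 10.6 and 9.48 CPM after CEES and 9.91, 6.77 and 8.23 CPM after PAO, the second set below every PAO library though not called. Gbp3 and Gbp5 were called in neither agent comparison, with log2 fold changes from -0.22 to 0.64.

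The immunity-related GTPases act at the same vacuoles. Irgm1 had 16.0, 17.6 and 18.4 CPM in SNX-5422+CEES libraries, against 11.2, 13.0 and 11.3 CPM in CEES libraries. SNX-5422+PAO libraries had 23.6, 17.2 and 17.0 CPM and PAO libraries 20.3, 18.7 and 19.1 CPM, against 10.8, 13.0 and 12.2 CPM in Control libraries. It rose after PAO by 0.69 ± 0.13 (adjusted p = 0.00145) and with SNX-5422 after CEES by 0.55 ± 0.13 (adjusted p = 0.0173, lost on leaving out any 1 of 4 libraries, at up to 0.0786), while CEES alone stood at -0.02 ± 0.13. Iigp1 had 16.0, 10.8 and 12.2 CPM in SNX-5422+CEES libraries, against 6.47, 9.50 and 7.72 CPM in CEES and 8.51, 6.27 and 7.69 CPM in Control libraries. Iigp1 had 7.40, 5.58 and 6.20 CPM in SNX-5422+PAO and 10.4, 6.41 and 8.05 CPM in PAO libraries, which overlapped. Its SNX-5422 effect after CEES was 0.72 ± 0.20 (adjusted p = 0.0405), a call lost in 8 of the 15 fits that left out a library. Igtp averaged 3.14 ± 0.540 CPM in CEES and 8.02 ± 1.54 CPM in PAO libraries, against 4.81 ± 0.462 CPM in Control libraries (SD, n = 3), and was lower after CEES than after PAO by 1.35 on the log2 scale (adjusted p = 0.000277). Ifi47 rose after PAO by 0.99 ± 0.25, a call lost without Control library 3 or PAO library 1 (adjusted p up to 0.0609), and was not called after CEES (0.49 ± 0.25).

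Cxcl9, Cxcl10 and Cxcl11 attract T cells through CXCR3, and Cxcl9 depends most on interferon gamma. Cxcl9 had 2.35, 2.15 and 1.49 CPM in SNX-5422+CEES libraries, against 0.306, 0.734 and 0.178 CPM in CEES libraries. It had 2.51, 3.33 and 4.65 CPM in SNX-5422+PAO and 2.00, 2.50 and 2.48 CPM in PAO libraries, against 2.89, 2.09 and 2.17 CPM in Control libraries. CEES libraries lay below all other libraries, with as few as 4 counts in one of them. Cxcl9 fell after CEES by 2.51 ± 0.39 on the log2 scale (adjusted p = 0.000122) and was higher in SNX-5422+CEES than in CEES libraries by 2.26 ± 0.39 (adjusted p = 0.00278), and stood at -0.03 ± 0.33 after PAO. The first 2 held whichever library was left out.

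Cxcl10 had 2.33, 1.92 and 2.89 CPM in PAO libraries, against 1.50, 1.49 and 1.10 CPM in Control libraries (0.82 ± 0.24, adjusted p = 0.0215, lost without Control library 3 or PAO library 1 or 3 at up to 0.127), and 1.49, 1.31 and 1.78 CPM in CEES libraries (0.17 ± 0.24). With SNX-5422, Cxcl10 had 1.52, 1.56 and 1.53 CPM after CEES and 2.51, 2.20 and 2.16 CPM after PAO, within the range of each agent alone. Cxcl11 had 1.06, 0.705 and 0.658 CPM in PAO and 0.787, 0.816 and 1.11 CPM in CEES libraries. Control libraries had 1.66, 0.418 and 0.908 CPM, a spread that covered the PAO and CEES values. Its levels with SNX-5422 were 0.783, 0.822 and 0.455 CPM after CEES and 0.342, 0.831 and 0.540 CPM after PAO. It was called in none of the 9 comparisons, at this depth of 6 counts or more per library.

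The type I and gamma-type classes were set side by side by the mean log2 CPM of each class, minus the mean of the Control libraries. The type I class stood at 1.00 ± 0.165 (SD, n = 3) in SNX-5422+CEES, 0.32 ± 0.075 in CEES, 1.20 ± 0.108 in SNX-5422+PAO and 1.40 ± 0.613 in PAO libraries, with the Control libraries between -0.045 and 0.035. The gamma-type class stood at 0.41 ± 0.083 in SNX-5422+CEES, -0.22 ± 0.330 in CEES, 0.20 ± 0.272 in SNX-5422+PAO and 0.40 ± 0.190 in PAO libraries, with the Control libraries between -0.072 and 0.090. Its CEES mean was drawn down by Cxcl9, at -2.62, -1.57 and -3.17 in CEES libraries 1 to 3, from 7, 18 and 4 counts. In SNX-5422+CEES libraries Cxcl9 stood at -0.01, -0.13 and -0.63. Gbp2 and Gbp7 lay above the Control mean in each CEES library, and Gbp3, Gbp5 and Irgm1 on both sides of it. PAO libraries 1 to 3 had 1.95, 0.74 and 1.52 for the type I class, so that PAO library 2 lay below every SNX-5422+CEES and SNX-5422+PAO library. These means describe lists whose members were chosen by name, and no p is given for them.

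By single genes, 11 of 14 type I and 2 of 6 gamma-type members rose after PAO, with median log2 fold changes of 1.55 and 0.47 (11.9% of all genes tested were raised). The gamma-type median was 0.28 without PAO library 1. Type I levels varied among these libraries too, with class means of 1.95, 0.74 and 1.52 in PAO libraries 1 to 3. After CEES, 2 of 14 type I members rose and 1 fell (median 0.59), and 1 of 6 gamma-type members rose and 1 fell (median 0.05), where 17.8% of all genes tested were raised and 16.2% lowered. The gamma-type median ran from -0.0065 without CEES library 2 to 0.11 without CEES library 3, and was 0.08 without Control library 2. With SNX-5422, the medians were 0.59 for type I and 0.47 for gamma-type genes after CEES, and -0.17 and -0.33 after PAO. The last 2 rested on single libraries. The type I median turned to 0.13 without PAO library 1, and was -0.39 without PAO library 2, -0.05 without PAO library 3, -0.10 without SNX-5422+PAO library 1 and -0.28 without SNX-5422+PAO library 2. The gamma-type median was -0.08 without PAO library 1, -0.60 without SNX-5422+PAO library 1 and -0.14 without SNX-5422+PAO library 2. The difference of the class medians was 1.07 after PAO, and 0.96 with a wider gamma-type class of 12 genes that adds Iigp1, Igtp, Ifi47, Cxcl10, Cxcl11 and Irf1. After CEES it was 0.54, and 0.50 with the wider class.

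**Figure D4:**
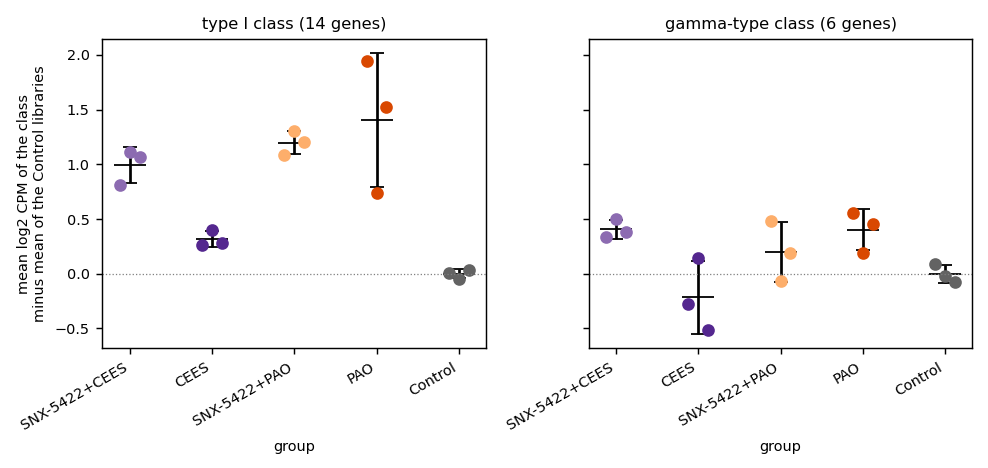
Mean log2 CPM of the type I class (14 genes, left) and the gamma-type class (6 genes, right) in each library, minus the mean of the Control libraries, with the mean and SD of each group of 3 libraries. Type I values lie above Control in all 4 treated groups, lowest in CEES, and gamma-type values of CEES libraries run from -0.51 to 0.14. Cxcl9 is the lowest of the 6 gamma-type genes in each CEES library and draws these values down.

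The ligands themselves were barely counted. Of 17 type I interferon genes other than Ifnk, 12, Ifnb1 among them, had 0 counts in all 15 libraries together, which allows a level of up to 0.00954 CPM over all gene counts of the 15 libraries (3 counts, for counting error only). The 17 genes had 34 counts in all, 26 of them of Ifna13, spread over the 5 groups at 4 to 6 counts each. Reads without a unique alignment, 4.78% to 9.76% of each library, are outside these counts. Genes with near copies, such as those of the Ifna family, may therefore be undercounted. Ifng had 1 count in all libraries and the lambda interferon genes 10. Of the 21 interferon genes only Ifnk, the interferon of keratinocytes, passed the filter. Ifnk had 1.66, 2.24 and 2.59 CPM in CEES and 2.83, 3.01 and 2.58 CPM in PAO libraries, against 4.65, 3.67 and 4.48 CPM in Control libraries. It fell after CEES by 0.98 on the log2 scale (SE 0.27, adjusted p = 0.00929), lay below every Control library after PAO without a call (-0.60 ± 0.27, adjusted p = 0.122), and averaged 1.91 CPM in SNX-5422+CEES libraries.

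Of the cytokines that induce interferon gamma, Il18 had 4.89, 5.26 and 6.07 CPM in PAO libraries, against 14.4, 11.7 and 15.0 CPM in Control libraries. It fell after PAO by 1.34 ± 0.23 on the log2 scale (adjusted p = 0.000647) and was not called after CEES (-0.38 ± 0.22, adjusted p = 0.194). Il12a fell after PAO by 1.62 ± 0.47 on the log2 scale (adjusted p = 0.021), at 0.354 CPM or less in each PAO library against 0.681 CPM or more in each Control library.

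Of the 6 receptor genes, 4 rose and 1 fell after CEES, and 3 rose and 0 fell after PAO. Of all genes tested, 17.8% were raised and 16.2% lowered after CEES, and 11.9% raised and 8.58% lowered after PAO. Ifnar2, a chain of the type I receptor, had 16.2, 23.9 and 19.4 CPM in CEES and 14.4, 12.2 and 12.4 CPM in PAO libraries, against 7.54, 7.39 and 7.27 CPM in Control libraries. It rose by 1.42 ± 0.14 after CEES (adjusted p = 1.85e-06) and by 0.82 ± 0.14 after PAO (adjusted p = 0.000797), while Ifnar1 rose by 0.96 ± 0.09 after CEES and by 0.47 ± 0.09 after PAO. Ifnar2 and Ifnar1 were higher after CEES than after PAO, by 0.61 ± 0.14 (adjusted p = 0.00544) and 0.49 ± 0.09 (adjusted p = 0.00125). Ifngr1, the ligand-binding chain for interferon gamma, had 38.4, 30.1 and 35.0 CPM in SNX-5422+PAO libraries, against 56.4, 57.4 and 52.0 CPM in PAO libraries, a log2 difference of -0.68 ± 0.09 (adjusted p = 0.000764). After CEES its SNX-5422 effect was 0.11 ± 0.09, and the difference of the 2 effects was 0.79 ± 0.13 (adjusted p = 0.0114). Ifngr2 was called in neither agent comparison, and Ifnlr1, the lambda receptor of epithelia, fell after CEES by 0.67 on the log2 scale.

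**Figure D5:**
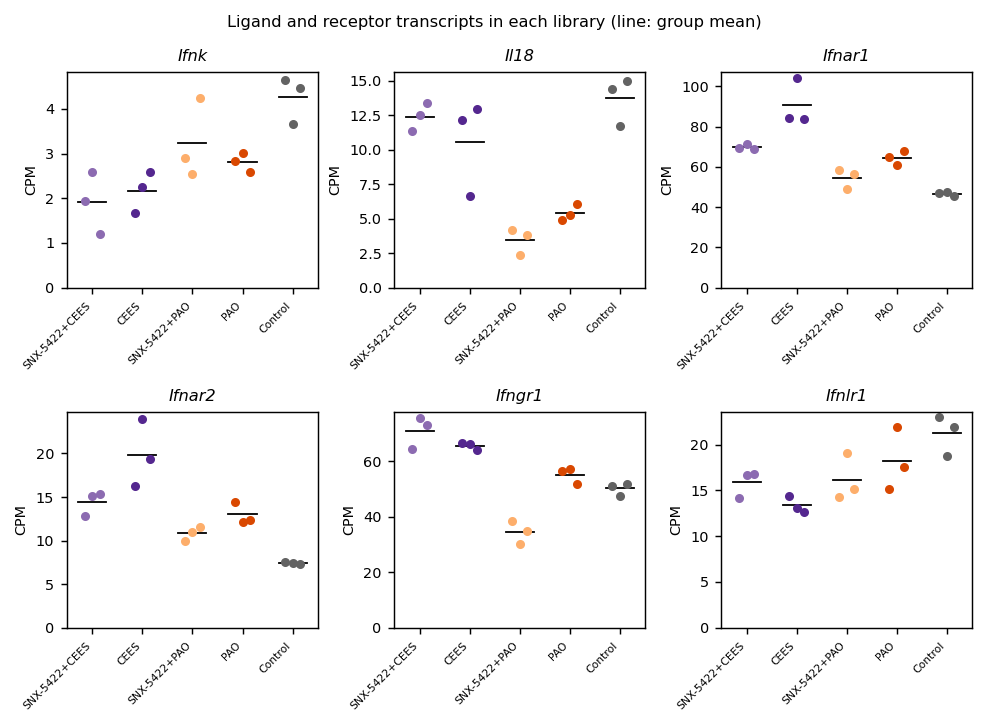
Level in CPM of the ligand genes Ifnk and Il18 and of 4 receptor genes in each library, with a line at the group mean. The group mean of Ifnk and that of Ifnlr1 are highest in Control, Il18 is lowest in the groups given PAO, Ifnar1 and Ifnar2 are highest in CEES libraries, and Ifngr1 is lowest in SNX-5422+PAO libraries.

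Among genes of JAK-STAT signalling, the feedback inhibitor Socs3 rose by 2.22 ± 0.17 after CEES and by 1.50 ± 0.16 after PAO, and was lower with SNX-5422 than without it after CEES (by 0.61 on the log2 scale) and after PAO (by 0.98). Stat3 rose by 0.63 ± 0.08 after CEES and 0.69 ± 0.08 after PAO. Of 21 upstream genes tested (sensors, adaptors, kinases and transcription factors among them), 12 rose and 2 fell after CEES, and 11 rose and 0 fell after PAO. Shares of all genes tested were 17.8% raised and 16.2% lowered after CEES, and 11.9% raised and 8.58% lowered after PAO. Tlr4 rose by 2.64 ± 0.21 after CEES and 1.97 ± 0.20 after PAO, and Sting1 by 2.39 ± 0.20 after CEES and 1.41 ± 0.20 after PAO. Mavs, which encodes an adaptor, and Irf3, which encodes a transcription factor, fell after CEES by 0.38 and 0.31 on the log2 scale.

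Among 30 further interferon-stimulated genes that are not members, 17 rose and 1 fell after CEES, and 23 rose and 1 fell after PAO. The shares of all genes tested were 17.8% raised and 16.2% lowered after CEES, and 11.9% raised and 8.58% lowered after PAO. Ifi205 (3.16 ± 0.28), Ifitm1 (2.96 ± 0.33) and Ifi211 (2.52 ± 0.29) had the smallest p after CEES, and Lgals9 (0.86 ± 0.11), Ifitm3 (1.19 ± 0.16) and Znfx1 (0.48 ± 0.07) after PAO. Of 26 antigen presentation genes and further GTPases tested, 6 rose and 8 fell after CEES, and 3 rose and 1 fell after PAO. The shares that rose are near those of all genes tested (17.8% after CEES and 11.9% after PAO), of which 16.2% were lowered after CEES and 8.58% after PAO. Nlrc5, the transactivator of class I genes, fell after CEES by 0.95 on the log2 scale and the peptide transporter Tap1 by 0.54. Irgm2 rose after PAO by 1.28 ± 0.16, was lower in SNX-5422+PAO than in PAO libraries by 0.91 on the log2 scale, and was higher in SNX-5422+CEES than in CEES libraries by 0.89 ± 0.16.

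Markers of other cell types differed between the same groups. All 13 monocyte and macrophage markers rose after CEES and 12 of 13 after PAO, where 17.8% and 11.9% of all genes tested were raised. Their summed level ran from 931 to 1375 CPM in SNX-5422+CEES, 1672 to 2575 CPM in CEES, 787 to 1215 CPM in SNX-5422+PAO and 1025 to 1130 CPM in PAO libraries, against 356 to 440 CPM in Control libraries. The summed level of 12 neutrophil markers ran from 48.8 to 161 CPM in SNX-5422+CEES, 160 to 282 CPM in CEES, 23.9 to 43.2 CPM in SNX-5422+PAO and 62.1 to 104 CPM in PAO libraries, against 14.7 to 18.9 CPM in Control libraries. Ifi204 and Trim30a had their highest mean in CEES libraries, and so did Irf1, Gbp7 and Samd9l. The other sensors, Zbp1, Dhx58, Eif2ak2 and Ifih1, had theirs in PAO libraries. Of the treated groups, the type I class stood lowest in CEES libraries. NK and T cells are the usual source of interferon gamma. Their 12 markers summed to 9.27 to 16.2 CPM in SNX-5422+CEES and 10.2 to 12.1 CPM in CEES libraries. Sums were 9.62 to 13.0 CPM in SNX-5422+PAO, 10.2 to 12.5 CPM in PAO and 15.1 to 22.6 CPM in Control libraries. The 6 plasmacytoid dendritic cell markers, Cox6a2 among them, which muscle also expresses, summed to 38.6 to 53.1 CPM in SNX-5422+CEES, 23.9 to 31.0 CPM in CEES, 63.3 to 80.9 CPM in SNX-5422+PAO and 49.8 to 58.9 CPM in PAO libraries, against 48.2 to 54.3 CPM in Control libraries. Their sum was thus higher in every library given SNX-5422 than in any library of the same agent alone. Whether this sum follows the number of plasmacytoid dendritic cells was not tested. The 8 skeletal muscle markers moved the same way, at 53036 to 73077 CPM in SNX-5422+CEES, 27894 to 30654 CPM in CEES, 108489 to 121417 CPM in SNX-5422+PAO and 81427 to 87289 CPM in PAO libraries, against 53849 to 99074 CPM in Control libraries. No marker of these lists was at 0 in a whole group. Fibroblast markers (7 genes) summed to 9272 to 12496 CPM in SNX-5422+CEES, 13706 to 16325 CPM in CEES, 2670 to 4291 CPM in SNX-5422+PAO and 3640 to 7085 CPM in PAO libraries, against 3107 to 4255 CPM in Control libraries. The 7 pancreas markers summed to 23.9 to 139 CPM in SNX-5422+CEES, 7.91 to 12.7 CPM in CEES, 1530 to 2314 CPM in SNX-5422+PAO and 948 to 1531 CPM in PAO libraries, against 842 to 2518 CPM in Control libraries. The pancreas markers belong to another organ than skin, and where their RNA came from was not tested. Every library coded 1 to 9 had a pancreas sum of 842 CPM or more, and every library coded 13 to 18 had 139 CPM or less. This split runs along both the codes and CEES, which cannot be told apart. The part of any of these marker lists in the results above was not tested.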

How the data were processed

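Raw gene counts of 15 libraries were deposited by the authors as 1 table of 53700 Ensembl identifiers, 52093 of them with a symbol. Per the labels' protocols, total RNA came from the Aurum kit, and Ribo-Zero Gold removed its ribosomal RNA. The submitters' processing notes name bcl2fastq 2.18.0.12, Trim Galore 0.6.7, STAR 2.7.10a, HTSeq 2.0.2 and the build GRCm39. Annotation release and strand setting: not given in the sources used here. Overlapping genes and near copies (Ifit3 and Ifit3b, Oas1a and Oas1g, the Gbp, p200, Trim30 and Ifna families) are therefore uncertain.

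Counts were tested with edgeR 4.0.16 in R 4.3.3 (TMM scaling, default filter on low counts, quasi-likelihood test, 1 fit of group means over 15 libraries, leaving 10 residual degrees of freedom). P-values were adjusted by Benjamini-Hochberg over 22529 genes and called under 0.05. CPM uses TMM library sizes, and log2 CPM a prior count of 2. SEs come from the F statistic. The test was tried on simulated counts first. The members and all lists were chosen with earlier results of these data known. Values in every library are given for the 2 members of each role with the highest mean CPM, for some members of small roles the text turns on and for members with a called difference of SNX-5422 effects; exceptions are named. Replicates of a group differed beyond sampling noise (chi-square per degree of freedom 6.99 to 50.2). Library sizes from 16838200 to 28887400 counts limit precision for genes of a few counts, such as Cxcl9 and Cxcl11. Reads outside the gene counts, from 35.2% to 46.9% without a feature, were left out. Alternatives were other scalings, filters, DESeq2 1.42.0, a mitochondrial covariate, a replicate block and leaving out each library.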

Additional observations from a re-analysis of the deposited data

Results flagged for a closer look

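The effect of SNX-5422 differed between the agents for 3 members, by a test of the difference itself (edgeR quasi-likelihood test over all 15 libraries). The difference, after CEES minus after PAO on the log2 scale, was 1.47 for Ifit3 (adjusted p = 0.0422), 2.37 for Oasl1 (adjusted p = 0.0399) and 1.17 for Xaf1 (adjusted p = 0.0422). Over the fits that left out a library, the adjusted p ran from 0.0158 to 0.126 for Ifit3, called in 6 of 15, from 0.00387 to 0.116 for Oasl1, called in 6 of 15, and from 0.0115 to 0.119 for Xaf1, called in 5 of 15. The difference stayed positive in all of these fits, between 1.21 and 1.65 for Ifit3, 1.83 and 2.71 for Oasl1, and 0.92 and 1.32 for Xaf1.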

How the results depend on the processing

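Of 151 called results of single members none changed direction under an alternative. The number of members called between SNX-5422+PAO and PAO was 5 under upper-quartile scaling, 8 under total counts, 7 without a filter and 6 by DESeq2, against 3. Between SNX-5422+CEES and CEES it was 4 under total counts, against 7. Between SNX-5422+PAO and Control it was 10 under total counts and 8 with the mitochondrial covariate, against 20. Between SNX-5422+CEES and SNX-5422+PAO it was 16 under total counts and 2 with the covariate, against 6, and between CEES and PAO it was 17 with the covariate, against 26. For the difference of SNX-5422 effects it was 12 without a filter, 9 by DESeq2 and 1 with only the groups compared, against 3. The cause was not tested. Leaving out a library gave 25 to 39 calls for PAO against Control, 11 to 23 for CEES against Control, 0 to 9 for SNX-5422+PAO against PAO, 4 to 9 for SNX-5422+CEES against CEES, 14 to 24 for SNX-5422+PAO against Control, 21 to 34 for SNX-5422+CEES against Control, 19 to 27 for CEES against PAO, 2 to 8 for SNX-5422+CEES against SNX-5422+PAO, and 0 to 9 for the difference of SNX-5422 effects. The difference of the class medians (type I minus gamma-type, log2) ran from 1.07 to 1.54 for SNX-5422+PAO against Control, the highest without SNX-5422+PAO library 1, and from -0.90 without that library to -0.45 for SNX-5422+CEES against SNX-5422+PAO. With a replicate block the counts were 36 for PAO against Control, 15 for CEES against Control, 3 for SNX-5422+PAO against PAO, 18 for SNX-5422+PAO against Control and 24 for CEES against PAO. Libraries with the same number shared only the number, with correlations of their deviations from -0.10 to 0.10 over 18 pairs. No paired analysis was possible because the SNX-5422+CEES titles give no distinct numbers, as far as comparisons with that group go.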
